A study of Homo sapiens with 16 samples.

Results

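ABCA1, ABCG1, NR1H2, NR1H3, MYLIP and APOE are 6 genes of cholesterol efflux and of the liver X receptors (LXRs), and their mRNA was followed through 45 h of HER2 inhibition in the breast cancer line SUM225, whose HER2 (ERBB2) gene is amplified and over expressed. All probes that the deposited array table assigns to these symbols were taken, 11 of 24526 probes, for 6 of its 18631 gene symbols. The genes were chosen by their roles with their courses on these same arrays already known, so the courses of the members are given as a description, with no test. SUM225 cells received 1 µM CP724,714, an inhibitor of the HER2 kinase, and parallel cultures were harvested every 3 h, which gave 16 groups from 0 h to 45 h with 1 array each. The 0 h culture is the start of the same course. The labels give Ham's F-12 medium with 5% fetal bovine serum, 5 µg/ml insulin and 1 µg/ml hydrocortisone for every culture, whereas the study's methods describe a serum-free medium without insulin for this line. No culture left without the inhibitor was analysed here, so the action of the drug cannot be told apart from time in culture. For the time courses of other lines, the study's methods report a change of medium when treatment began. If SUM225 was handled alike, fresh medium cannot be told apart from the drug either. One cell line was used, and no time point had a replicate, so each error below is the scatter of arrays around a fitted course.

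LXRs are nuclear receptors that bind oxysterols, the oxidised derivatives of cholesterol, and NR1H2 encodes LXRβ and NR1H3 encodes LXRα. Each pairs with a retinoid X receptor (RXR) on DNA and turns on genes that lower cell cholesterol. ABCA1 and ABCG1 are transporters that move cholesterol and phospholipid out to lipoprotein particles, APOE is an apolipoprotein that can accept such lipid, and MYLIP (also called IDOL) is a ubiquitin ligase that marks lipoprotein receptors, among them VLDLR and LRP8, for degradation.

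Values are log2 signals after background correction and quantile normalization. The linear change is the rise or fall over 45 h given by the first-order term of a cubic course in hours, in log2 units with its SE. Of the 11 member probes, 10 passed the detection filter, and 1 ABCG1 probe was detected on 0 arrays. Array medians of the deposited signal lay between 242 and 384, the brightest array being that of 27 h. Markers of epithelium and of the HER2 amplicon were detected on all 16 arrays in 7 of 7 genes with a probe, with a summed signal of 210000 to 278000. Of these 7, KRT8 and KRT18, keratins of luminal epithelium, fell by 0.68 and 0.74 (28.6%, beside 21.7% of all probes tested). None rose (beside 26.0%), and KRT19, EPCAM, CDH1, ERBB2 and GRB7 did not pass the test of the linear change. KRT19 and ERBB2 shared a high log2 value, 16.10 in both at 0 h and 16.11 and 16.12 at 45 h. Whether their probes were saturated, so that a change could not show, was not tested. Among 10 macrophage markers, a cell type known for LXR activity, CD14, CD68 and LYZ were detected on all 16 arrays, 4 genes on none, and the summed signal was 3960 to 7520. Of the 5 tested, CD14 (linear change 0.34, adjusted p = 0.0499) and CD68 (0.38, adjusted p = 0.0341) rose by the limma test, close to its threshold. The share was 40%, beside 26.0% of all probes tested, and none fell, beside 21.7%. MSR1 and AIF1 passed the detection filter, on 10 and 11 arrays, and CD163, PTPRC, CSF1R, ITGAM and TYROBP did not. Among 9 fibroblast and adipocyte markers none was detected on all arrays, and the summed signal was 1630 to 2170. The part of these shifts in the results below was not tested, and in RNA of whole cultures fewer cells of a kind and less RNA per cell cannot be told apart.

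ABCA1, the transporter whose loss causes Tangier disease, showed the widest course of the 6 genes. Its probe ILMN_1766054 was not above background at 0 h, with a deposited detection p-value of 0.516, and was detected on each of the 15 later arrays. The log2 value was 5.10, 6.93, 7.37 and 7.88 at 0, 3, 6 and 9 h. It was 7.97, 8.83, 8.59 and 8.41 at 12, 15, 18 and 21 h. It was 8.31, 8.98, 8.65 and 8.89 at 24, 27, 30 and 33 h, and 9.30, 9.20, 9.22 and 9.88 at 36, 39, 42 and 45 h. Every later array was therefore above the 0 h array, and the climb was steepest before 15 h. Because the 0 h value is a bound, folds were taken against 6.05, the lowest log2 value of a detected probe at 0 h. ABCA1 was at least 1.84-fold higher at 3 h, at least 3.57-fold at 9 h, at least 6.87-fold at 15 h and at least 14.3-fold at 45 h. The linear change was 3.11 ± 0.22 (SE, 16 arrays), larger than that of 99.9% of the 16110 probes tested, whose median was 0.05. It was 1.84 without background correction on any array, and 2.39 without the 0 h array.

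The sequence before the ABCA1 start is shown because it holds the kind of element that LXR and RXR are known to share, a direct repeat of AGGTCA spaced by 4 bases (DR4). The 250 bases upstream of the start, from RefSeq (GRCh38.p14, chr9:104928156-104928405, minus strand, written 5′ to 3′ on the strand of the gene), follow with the DR4-like match in capitals.

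ABCA1: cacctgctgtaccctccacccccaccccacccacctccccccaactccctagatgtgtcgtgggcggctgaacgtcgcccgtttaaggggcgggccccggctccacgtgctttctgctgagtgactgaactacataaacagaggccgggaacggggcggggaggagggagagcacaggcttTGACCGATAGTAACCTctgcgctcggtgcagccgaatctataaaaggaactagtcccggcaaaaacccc

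The match runs in reverse, reads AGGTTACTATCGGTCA on the opposite strand, begins 69 bases before the start and differs from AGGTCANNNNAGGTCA at 2 of its fixed letters. Both strands of the windows from 250 bases before to 50 bases after each start were searched. Of 35116 such windows, 822 (2.34%) held a match with at most 2 mismatches. The other 9 windows of members with an entry (1 of NR1H2, 4 of NR1H3, 1 of MYLIP and 3 of APOE) held none, and ABCG1 had no entry in the table. The ABCA1 window also held an E-box, CACGTG, which is present in 7.26% of all windows and in no other member window. TGTTTAC, the core letters bound by FOXO factors, was in 3.42% of all windows and in none of the 10 member windows. These matches describe letters only, as binding of a factor was not measured.

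**Figure D1:**
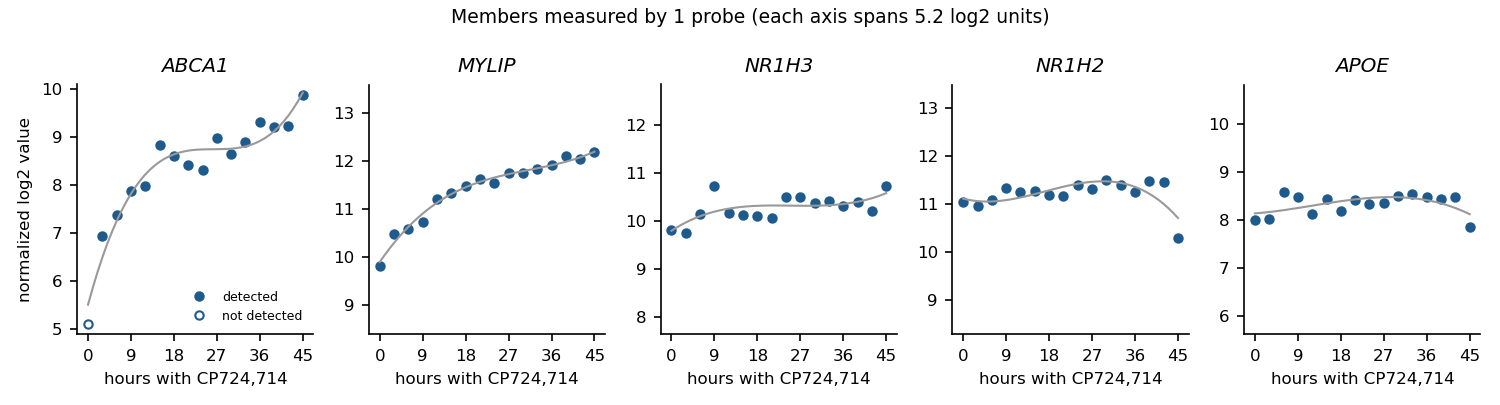
Normalized log2 values (vertical axes, all of equal span) against hours with CP724,714 (horizontal axes) for the 5 members measured by 1 probe. Each point is 1 array, open where the probe was not detected, and the line is the cubic fit. ABCA1 runs from 5.10 to 9.88 and MYLIP from 9.80 to 12.17, while NR1H3, NR1H2 and APOE stay within narrower ranges and NR1H2 and APOE drop on the 45 h array.

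MYLIP had the smoothest course of the members. The log2 value of its probe ILMN_1656111 was 9.80, 10.48, 10.58 and 10.72 at 0, 3, 6 and 9 h, and 11.20, 11.32, 11.48 and 11.62 at 12, 15, 18 and 21 h. It was 11.53, 11.74, 11.74 and 11.82 from 24 to 33 h, and 11.90, 12.09, 12.03 and 12.17 from 36 to 45 h. Of the 15 steps between neighbouring arrays 12 went up and 2 went down, and the 45 h value was 5.15-fold that at 0 h. The linear change was 1.98 ± 0.09 (SE, 16 arrays), with a residual SD of 0.10 beside a median of 0.19 over all probes tested. It exceeded the linear change of 99.4% of the probes. MYLIP was higher than at 0 h on all 15 later arrays, as was ABCA1.

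The mRNAs of 2 receptors that MYLIP acts on as proteins moved in different directions. LRP8, the reelin and apolipoprotein E receptor, fell by 2.02 ± 0.22 (limma, adjusted p = 4.25e-07), and most of its drop lay between 6 h (11.35) and 12 h (9.46). Its other probe fell by 1.49 ± 0.18 (adjusted p = 1.1e-06). VLDLR, the receptor for very low density lipoprotein, rose by 1.23 ± 0.11 (adjusted p = 2.87e-08), from 8.61 at 0 h and 8.39 at 6 h to 8.86 at 9 h and 9.60 at 45 h. At 0 and 3 h, with 1 array each, MYLIP was 9.80 and 10.48, LRP8 was 11.84 and 11.80, and VLDLR was 8.61 and 8.50. Whether the course of MYLIP is linked to those of the receptor mRNAs was not tested. No protein was measured on these arrays.

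**Figure D2:**
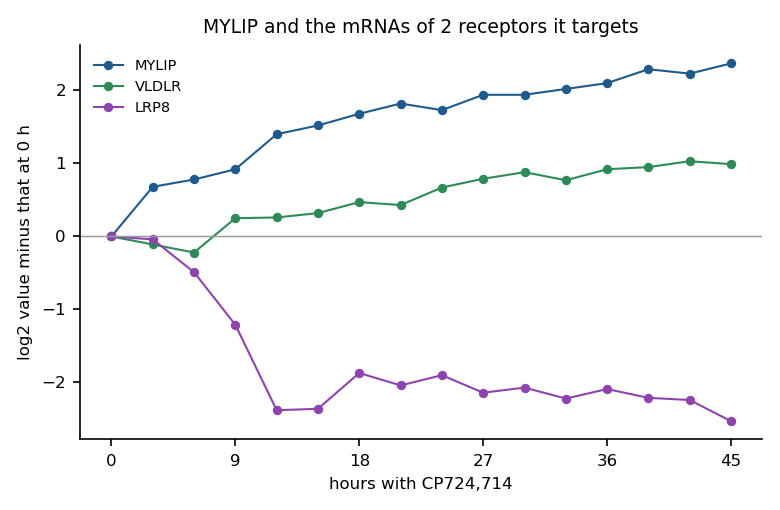
Log2 value minus that of the 0 h array (vertical axis) against hours with CP724,714 (horizontal axis), 1 array a point, for MYLIP and for the mRNAs of 2 receptors that the ligase targets as proteins. MYLIP and VLDLR end above 0, and LRP8 drops between 6 and 12 h and ends below it.

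ABCG1, which passes cholesterol to high density lipoprotein, has 6 probes, and they did not show a common course. ILMN_2329927, the brightest, was 9.00, 9.17, 8.53 and 8.68 at 0, 3, 6 and 9 h, then 9.55, 9.96, 9.72 and 9.73 from 12 to 21 h. It was 9.17, 9.69, 9.66 and 9.81 from 24 to 33 h and 9.94, 10.15, 10.16 and 9.99 from 36 to 45 h. ABCG1 by this probe was lowest at 6 h and stood above the 0 h value on 13 of 15 later arrays. ILMN_1794782 read 8.74, 8.71, 8.33 and 7.93 at 0, 3, 6 and 9 h and 9.23, 8.86, 9.53 and 9.78 from 12 to 21 h. From 24 h it read 8.81, 9.23, 9.19 and 9.15, and from 36 h 9.53, 9.65, 9.48 and 9.58. Both probes were below their 0 h values at 6 and 9 h and stepped up between 9 and 12 h, whereas ABCA1 and MYLIP were above their 0 h values throughout.

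The linear change of ABCG1 was 1.25 ± 0.24 by ILMN_2329927 and 1.12 ± 0.28 by ILMN_1794782. Between 0 to 9 h and 12 to 21 h, the means of 4 arrays went from 8.84 to 9.74 and from 8.43 to 9.35. The 12 h set of arrays (0 to 9, 12 to 21, 24 to 33 and 36 to 45 h) was also fitted as a factor. That fit held a straight line in place of the cubic, so its linear change is the slope within sets scaled to 45 h. The linear changes were then 0.28 ± 0.71 and 0.19 ± 0.88. As the sets follow each other in time, the factor takes up any rise between them, so these values do not measure it. The third probe detected on all arrays, ILMN_1658176, stayed between 8.41 and 9.10, with a linear change of 0.26 ± 0.14. ILMN_1743638 was detected on 9 arrays (linear change -0.28 ± 0.25) and ILMN_1695968 on 6 (0.46 ± 0.25). ILMN_2262362 was detected on none. Over the 16 arrays the 2 brightest probes correlated at r = 0.86, and ILMN_2329927 and ILMN_1658176 at r = 0.05. The table does not say which transcript each probe reads.

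**Figure D3:**
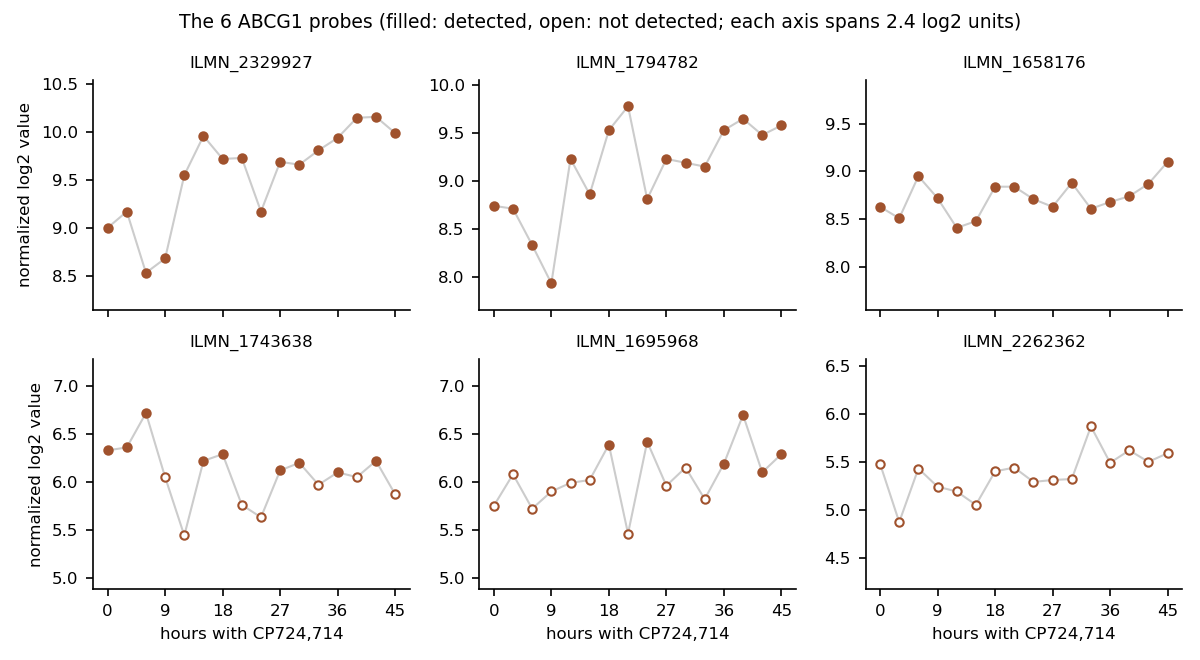
Normalized log2 values (vertical axes, all of equal span) of the 6 ABCG1 probes against hours with CP724,714 (horizontal axes). Each point is 1 array, filled where the probe was detected. The first pair of probes dip before 12 h and are higher afterwards, the third stays between 8.41 and 9.10, and the lower row lies at or under the limit of detection on many arrays.

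The LXR genes themselves covered narrower ranges, 0.98 log2 units for NR1H3 and 1.22 for NR1H2, than MYLIP (2.36) and ABCA1 (at least 3.83 between 0 h and 45 h). APOE covered less, 0.72. The ABCG1 probes detected on all arrays lay on both sides, ILMN_2329927 at 1.63, ILMN_1794782 at 1.85 and ILMN_1658176 at 0.68. NR1H3 was 9.82, 9.76, 10.15 and 10.73 at 0, 3, 6 and 9 h, 10.17, 10.14, 10.10 and 10.06 from 12 to 21 h, 10.51, 10.51, 10.39 and 10.43 from 24 to 33 h, and 10.31, 10.41, 10.22 and 10.74 from 36 to 45 h. The 9 h and 45 h arrays were thus the 2 highest, and 14 of 15 later arrays were above the first. Its linear change was 0.52 ± 0.17, and its whole range was 1.97-fold. NR1H2 was 11.04, 10.96, 11.07 and 11.33 from 0 to 9 h, 11.25, 11.26, 11.18 and 11.16 from 12 to 21 h, 11.40, 11.30, 11.49 and 11.40 from 24 to 33 h, and 11.25, 11.47, 11.46 and 10.28 from 36 to 45 h. The 45 h array was the lowest by a wide margin, and its deposited signal was 1110 against 3010 at 42 h, while the array medians were 268 and 288. NR1H2 had a linear change of 0.03 ± 0.16, and of 0.44 without the 45 h array.

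RXRs and cofactors were taken as a list of 13 genes, of which 12 were tested. This list and those below were also chosen with earlier results of these data known, so their shares are a description. Each list gene is counted by its brightest tested probe, whereas the shares beside are of all probes tested. RXRA rose by 0.81 ± 0.11 (limma, adjusted p = 3.59e-06), from 11.91 at 0 h to 12.68 at 9 h and 12.79 at 45 h. RXRB rose by 0.96 ± 0.14 (adjusted p = 1.04e-05), from 9.57 to 10.73, with a dip to 9.26 at 3 h. RXRG, the third retinoid X receptor, had a linear change of 0.08 ± 0.27 (adjusted p = 0.84) and was detected on 11 arrays. PPARGC1A, a coactivator of nuclear receptors, rose by 0.96 ± 0.17 (adjusted p = 8.75e-05). In all, 7 of the 12 rose (58.3%, beside 26.0% of all probes tested) and none fell (beside 21.7%), with a median linear change of 0.38. The others that rose were the coactivators NCOA1, NCOA3 and NCOA6 and the corepressor NCOR1. Without the 3 h array 5 of the 12 rose, and over all 16110 probes tested 3744 rose. With the 12 h set as a factor none of the 12 passed the test. In that fit only 68 of the 16110 probes rose and 77 fell. The linear changes were then 1.48 ± 0.52 for RXRA, 1.80 ± 0.56 for RXRB and 1.70 ± 0.76 for PPARGC1A.

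APOE, whose probe ILMN_1740938 was detected on all 16 arrays, was nearly level. Its log2 value was 7.99, 8.02, 8.58 and 8.47 from 0 to 9 h, 8.13, 8.44, 8.18 and 8.41 from 12 to 21 h, 8.34, 8.35, 8.50 and 8.53 from 24 to 33 h, and 8.48, 8.43, 8.48 and 7.86 from 36 to 45 h. The highest value came at 6 h and the lowest at 45 h, where NR1H2 was also lowest. The linear change was 0.13 ± 0.16, and 0.36 without the 45 h array. APOE was above its 0 h value on 14 of 15 later arrays, by at most 0.59 log2 units.

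The courses of the members with 1 probe can also be read from the signals as deposited, before any correction. The ABCA1 signal was 175, 250, 403, 712 and 876 at 0, 3, 9, 15 and 45 h. Its highest signal, 996, fell on the 27 h array, where the array median was also highest. The MYLIP signal was 988 at 0 h and 3720 at 45 h, against array medians of 278 and 268. NR1H3, NR1H2 and APOE also had their highest deposited signals at 27 h, at 2480, 4120 and 710.

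**Figure D4:**
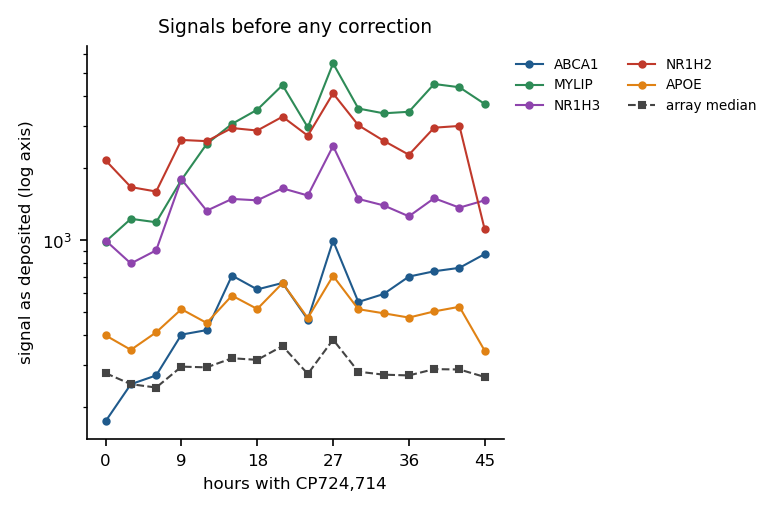
Signal as deposited (vertical axis, log scale) against hours with CP724,714 (horizontal axis) for 5 members and for the median of each array (dashed), 1 array a point. The 27 h array is the brightest in the median (384) and in the 5 genes, ABCA1 starts at 175 and ends at 876, and NR1H2 falls to 1110 at 45 h.

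By the fit over all probes, 5 of the 10 member probes tested were called as rising, those of ABCA1, NR1H3 and MYLIP and 2 of ABCG1, and 0 as falling. Of all probes tested, 26.0% were called as rising and 21.7% as falling. The members were selected on these arrays, so nothing is read from that count. Across the 16 arrays, which the points share, ABCA1 and MYLIP correlated at r = 0.95, and at r = 0.83 once a straight line in hours had been taken from each. MYLIP and ABCG1 (ILMN_2329927) correlated at 0.82, and at 0.38 without the line. ABCA1 and the same ABCG1 probe correlated at 0.73, and at 0.18 without the line. NR1H3 and ABCG1 (ILMN_1794782) deviated from their lines in opposite directions, at r = -0.70, the 9 h array being high in the former and low in the latter. NR1H2 and APOE correlated at 0.74, with the 45 h array the lowest in both.

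For each member the 3 other genes whose course was most alike, by Pearson r over the 16 arrays, were also taken. For ABCA1 they were PCMTD2, CXCR7 (now ACKR3, an atypical chemokine receptor) and BTD, each at r = 0.97, and CXCR7 had a linear change of 3.31 ± 0.25 beside 3.11 for ABCA1. For MYLIP they were PCDH20 (0.99), RPS29 (0.98) and SYNGR1 (0.98). For ABCG1 (ILMN_2329927) they were ZNF195 (0.96), RAB11FIP2 (0.95) and SOX4 (0.93). NR1H3 was most like HAGH (0.90), SUPT4H1 (0.89) and KIAA0528 (0.89). NR1H2 was most like CUEDC2 (0.95), ARRDC1 (0.93) and CAPNS1 (0.92), and APOE was most like MAF1 (0.90), METRN (0.88) and ADAM15 (0.87). No other member and no gene of the LXR list was among these 18.

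Other known LXR target genes, a list of 19 with 18 tested, split between directions. SMPDL3A, an acid phosphodiesterase, rose by 1.80 ± 0.16 (limma, adjusted p = 1.69e-08), from 6.98 at 0 h to 7.64 at 9 h and 8.57 at 45 h. APOD, a lipocalin, rose by 1.39 ± 0.33 (adjusted p = 0.00179), and LPCAT3, which remodels phospholipids and is named OACT5 in the table, rose by 0.97 ± 0.10 (adjusted p = 1.09e-07). SREBF1, which encodes the lipogenic factor SREBP-1, rose by 0.58 ± 0.13 (adjusted p = 0.000905), and its other tested probe by 0.54 ± 0.16. MLXIPL, which encodes the carbohydrate response factor ChREBP, fell by 1.33 ± 0.21 (adjusted p = 2.37e-05), and the apolipoprotein gene APOC1 fell by 1.16 ± 0.18 (adjusted p = 3e-05). LPL, the secreted lipoprotein lipase, fell by 0.71 ± 0.27 (adjusted p = 0.0377) but was detected on 5 arrays. Leaving out any 1 of 6 arrays ended that call, with an adjusted p of up to 0.109 (without 6 h). The linear change of LPL was 0.46 ± 1.06 with the 12 h set as a factor. APOD had a linear change of -0.91 ± 0.66 with a step between 21 and 24 h in the fit. The step takes up any rise across it, so this value does not measure that rise. In all 6 rose (33.3%) and 4 fell (22.2%), beside 26.0% and 21.7% of all probes, and the median linear change was 0.15 beside 0.05. The other genes past the test were LPIN1 and NPC2, which rose, and FASN, which fell. ABCG8 was not tested, being detected on no array.

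Of 9 oxysterol enzymes 6 were tested, none rose and 3 fell (50%, beside 21.7% of all probes), with a median linear change of -0.35. SULT2B1, which sulphates cholesterol and oxysterols, fell by 0.58 ± 0.14 (limma, adjusted p = 0.00264), but without the 45 h array it had a linear change of -0.28 and an adjusted p of 0.10. HSD3B7, an enzyme of bile acid synthesis, fell by 0.73 ± 0.16 (adjusted p = 0.00113), but with the 12 h set as a factor its linear change was -0.04 ± 0.61. EBP, a sterol isomerase that is also counted in the list of cholesterol synthesis below, fell by 0.54 ± 0.16 (adjusted p = 0.0101). EBP missed the threshold without the 0 h or the 3 h array, at adjusted p of 0.0676 and 0.0576. CH25H, CYP46A1 and CYP3A4, which hydroxylate cholesterol, were detected on no array.

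Of 26 genes of cholesterol efflux, esterification and intracellular transport 22 were tested, 8 rose (36.4%, beside 26.0% of all probes) and 2 fell (9.09%, beside 21.7%), with a median linear change of 0.12. ABCA3, a lipid transporter related to ABCA1, rose by 1.12 ± 0.19 (limma, adjusted p = 7.29e-05), although it was below its 0 h value of 8.61 at 9 h (8.17). GRAMD1A, a cholesterol transfer protein of the endoplasmic reticulum, rose by 1.06 ± 0.13 (adjusted p = 2.18e-06), and OSBP, the oxysterol binding protein, by 1.02 ± 0.07 (adjusted p = 7.79e-10). CAV1, which encodes the caveolar protein caveolin-1, fell by 1.19 ± 0.17 (adjusted p = 1.02e-05). ABCA7, another relative of ABCA1, fell by 0.39 ± 0.16 (adjusted p = 0.0455), and leaving out any 1 of 11 arrays ended the call, with an adjusted p of up to 0.337 (without 0 h). ABCA3 had a linear change of -0.24 ± 0.71 with the 12 h set as a factor. Among lipoprotein receptors and their regulators, 9 genes with 8 tested, 4 rose (50%, beside 26.0% of all probes) and 1 fell (12.5%, beside 21.7%), with a median linear change of 0.39. Besides the receptors above, CD36, a scavenger receptor, rose by 1.47 ± 0.35 (adjusted p = 0.00156), and by 1.72 ± 0.31 by its other probe. With the step between 21 and 24 h, which takes up any rise across it, the linear change of CD36 was -0.41 ± 0.61. The sorting receptors SORL1 and SORT1 rose by 0.76 ± 0.11 (adjusted p = 1.74e-05) and 0.65 ± 0.10 (adjusted p = 2.32e-05).

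Cholesterol synthesis and SREBP2 control, 22 genes with 20 tested, was the list with the most falls, 12 (60%, beside 21.7% of all probes), against 3 that rose (15%, beside 26.0%). The median linear change was -0.58. MVD and HMGCS1, enzymes of the mevalonate pathway, fell by 1.52 ± 0.23 and 1.02 ± 0.19 (limma, adjusted p = 2.27e-05 and 0.000219). INSIG1 and INSIG2 retain SREBPs in the endoplasmic reticulum. INSIG1 fell by 0.98 ± 0.24 (adjusted p = 0.00227), and INSIG2 rose by 0.43 ± 0.08 (adjusted p = 0.000102). PMVK, another mevalonate enzyme, rose by 0.45 ± 0.09 (adjusted p = 0.000387), and TM7SF2, a sterol reductase, by 0.53 ± 0.17 (adjusted p = 0.0165). TM7SF2 missed the threshold without the 0 h or the 3 h array, with linear changes of 0.28 and 0.37 and adjusted p of 0.263 and 0.118. Over all lists, 27 of the 83 genes tested rose (32.5%, beside 26.0% of all probes) and 21 fell (25.3%, beside 21.7%). With the 12 h set as a factor, 0 rose and 2 fell, APOC1 and MVD.

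**Figure D5:**
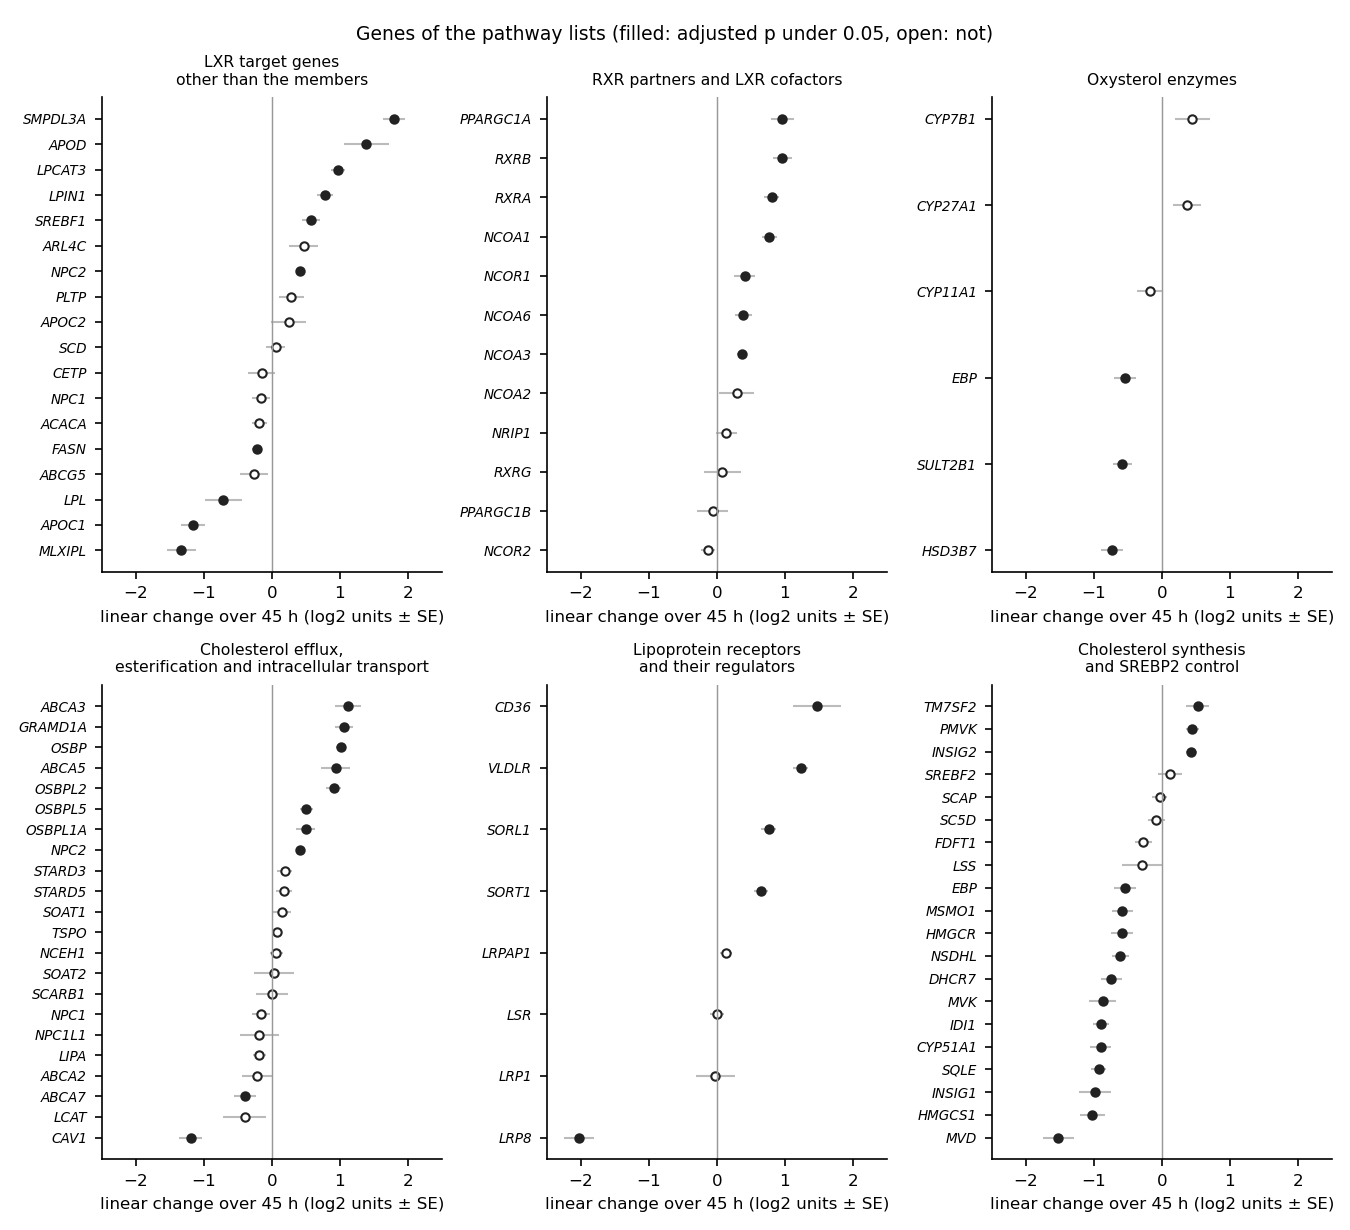
Linear change over 45 h in log2 units (horizontal axes) with its SE as bars for each tested gene (vertical axes) of the 6 pathway lists, filled where the adjusted p was under 0.05. Some genes stand in more than 1 list. Most of the filled genes of cholesterol synthesis lie below 0, those of the RXR list all lie above 0, and the LXR targets lie on both sides, from MLXIPL at -1.33 to SMPDL3A at 1.80.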

How the data were processed

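Total RNA of SUM225 cultures was turned into biotinylated cRNA and read on Illumina bead arrays, 1 per time point. The deposited table holds a linear signal intensity for each probe and array, without background subtraction or normalization by the authors. The deposited detection p-value of each probe compares it with the negative controls of its array. The methods name the human Ref8v2 array for the time courses of other lines, and the labels of these samples do not name the array. Probe sequences, scanning software and genome build were not given in the sources used here.

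Signals were corrected with normexp on controls inferred from the detection p-values (offset 16), quantile normalized and log2 transformed (neqc, limma 3.58.1, R 4.3.3). The offset compresses changes near background. The filter kept 16110 probes whose detection p was below 0.05 on 3 or more arrays. A cubic in hours (orthogonal polynomials of degree 3) was fitted with lmFit and eBayes with a trend, and the first-order coefficient over 45 h was tested two-sided, with Benjamini-Hochberg adjustment over all probes tested at 0.05. The fit was tested on simulated data with independent noise and added straight-line changes. Those data held no shift shared by the probes of an array or a set, so that test does not cover such shifts. Residuals also hold any change a cubic cannot follow, and deviations are between arrays, which may be technical. Precision is limited by there being 16 arrays.

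Of several probes of a gene, the brightest tested stood for it. Named genes were all member probes, of each list all genes past the test where at most 6 passed and otherwise the 3 largest rises and 3 largest falls, VLDLR, LRP8, the RXRs, SREBF1, and the 3 genes most like each member. Some genes are not reported here and were left out of the lists and their counts. Members and lists were chosen with earlier results of these data known. Symbols were matched to RefSeq (91%). Alternatives were the background correction, offset, normalization, filter, time model, array set, array weights, choice of probe, and leaving out single arrays. The 12 h sets were noticed in earlier work on these data, and the labels name no batch. Fits with the set or the step held a straight line in hours in place of the cubic. Figures were drawn with matplotlib.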

Additional observations from a re-analysis of the deposited data

How the results depend on the processing

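No paired analysis was possible because there was a single array at every time. Members' linear changes are given in log2 units, and the cause of each shift was not tested. With the set as a factor, the value is a slope within sets scaled to 45 h. Its SE was 1.47 for ABCA1, beside 0.22 in the main fit. With the step, the value is a slope common to the arrays before 24 h and those from 24 h on. The step takes up any shift between these arrays, so that slope does not measure the shift. ABCA1 (3.11) was 1.84 without background correction, 1.82 on the signal as deposited, 2.64 with an offset of 50, 2.79 with array weights, 4.48 with a step between 21 and 24 h, 4.90 with a factor for the 12 h set, and 2.39 to 3.28 when 1 array was left out. MYLIP (1.98) was 1.84 without background correction, 1.87 with array weights, 2.45 with the step, 2.20 with the set and 1.73 to 2.08 with 1 array left out. ABCG1 was 2.03 with the step and 0.28 with the set by ILMN_2329927, 2.03 and 0.19 by ILMN_1794782, and 0.44 and 1.39 by ILMN_1658176. The dim probe ILMN_1743638 turned to 0.44 with the set, and ILMN_1695968 was 0.15 without background correction and turned to -1.14 with the set. NR1H3 was 0.26 with the step and 1.31 with the set. NR1H2 turned to -0.03 with cyclic loess, -0.43 with the step and -0.77 with the set, was 0.38 with array weights, and ran from -0.05 to 0.44 with 1 array left out. APOE was -0.0013 with the step, 0.55 with the set, 0.36 with array weights and 0.02 to 0.36 with 1 array left out. Of all 16110 probes tested, 1806 rose and 1584 fell with the step, and 68 rose and 77 fell with the set. Of the 83 list genes tested, 13 rose and 23 fell with the step, and 0 rose and 2 fell with the set. Among list genes, the sign changed for APOD (-0.91 ± 0.66) and CD36 (-0.41 ± 0.61) with the step. It also changed for LPL (0.46 ± 1.06) and ABCA3 (-0.24 ± 0.71) with the set. RXRG ran from -0.08 to 0.21 with 1 array left out. Of the other values for lists and list genes, 37 kept direction but missed the threshold under an alternative and 22 without 1 array. Another 401 and 635 kept direction and side of the threshold or, for counts, stayed within 1.5 times the main count. Counts went beyond that in 18 cases under alternatives and in 11 with 1 array left out. Falls in cholesterol synthesis went from 12 to 1 with the set, beside 3495 to 77 over all probes. Falls in the efflux list went from 2 to 1 without 3 h, beside 3495 to 3107 over all probes. Depth does not apply to arrays. The ABCA1 value at 0 h and 3 of the 6 ABCG1 probes are limited by the background.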
